A study of Mus musculus with 8 samples.

Results

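The 10 genes studied here define melanocytes and their pigment: Tyr, Tyrp1, Dct, Mlana, Slc45a2, Oca2, Gpr143, Mc1r, Kit and Mitf. They were found by name among the probes of 8 mouse arrays, with older names counted. They were 10 of 21192 named genes on the array and held 12 of 41127 probes, because Dct and Mitf had 2 probes each. The array files call the Oca2 probe p, its former symbol, and the Mlana probe was matched by its symbol.

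The RNA came from the back skin of male mice of the hairless strain SKH-1, aged 19 weeks, and 8 arrays were hybridised, 1 for each replicate. Every mouse had UVB on the back for 10 weeks, the controls included, so no unirradiated skin enters any comparison. From 1 week after the last irradiation, 4 biological replicates received 1% w/v enalapril maleate in 30 vol % ethanol on the back. Another 4 received the 30 vol % ethanol without the drug. Both were applied 5 times a week for 2 weeks. The sample labels give these numbers of replicates and weeks, and their titles number replicates and not mice. The series text speaks of groups of 6 mice and of treatment for 2 or 6 weeks. The groups are called enalapril and vehicle here, and arrays are numbered 1 to 4 within each by the labels, which call them biological replicates. Enalapril blocks angiotensin-converting enzyme, and the comparison asks what it did to gene expression in irradiated skin.

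Melanocytes arise from the neural crest and make melanin inside melanosomes, which they pass to keratinocytes. The transcription factor MITF governs the lineage and binds CATGTG in the promoters of pigment genes, while KIT carries the survival signal of stem cell factor, and MC1R, the receptor of melanocyte-stimulating hormone, raises pigment synthesis through cyclic AMP. Tyrosinase (Tyr) starts melanin synthesis, and Dct and Tyrp1 act on the later steps. In mouse back skin the cells sit mainly in hair follicles. SKH-1 is an albino strain, so the lineage is present but makes no pigment. Most of the 10 genes are largely restricted to the lineage in skin, whereas Kit is also the receptor that marks mast cells and Mitf has forms made in mast cells and other cells.

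The letters that MITF is known to bind were searched in the 250 bases before each start in RefSeq's promoters (GRCm38.p6). The search was chosen after the levels of the 10 genes were seen, and a link between the motif and those levels was not tested. CATGTG, on either strand, was present in 4025 of 32851 promoters, or 12.3%. Of the 10 genes, 7 had an entry. CATGTG was in 5 of them (Tyr, Tyrp1, Dct, Mc1r and Oca2) and in none of the starts listed for Kit and Mitf. The longer form AGTCATGTG, which contains CATGTG and belongs to the element called the M-box, was in 75 promoters or 0.228%, those of Tyr and Tyrp1 among them. The 4 promoters below are of the 3 enzymes and the receptor, from the gene's own strand, with capitals at CATGTG and at its reverse complement CACATG. They lie at chr7:87493513-87493762 (minus strand, Tyr), chr4:80833963-80834212 (plus strand, Tyrp1), chr14:118052247-118052496 (minus strand, Dct) and chr8:123406832-123407081 (plus strand, Mc1r). The motif began 21 bases before the start in Tyr, 46 in Tyrp1, 150 in Dct and 51 in Mc1r. Dct and Mc1r each also had the reverse form, at 232 and 62 bases. A match is a description of these letters and not a measured binding site.
Tyr: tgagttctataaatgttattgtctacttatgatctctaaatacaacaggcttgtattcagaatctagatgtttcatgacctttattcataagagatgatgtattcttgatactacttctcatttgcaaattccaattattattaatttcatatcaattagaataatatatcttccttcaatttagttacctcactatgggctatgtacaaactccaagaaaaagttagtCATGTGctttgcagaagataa
Tyrp1: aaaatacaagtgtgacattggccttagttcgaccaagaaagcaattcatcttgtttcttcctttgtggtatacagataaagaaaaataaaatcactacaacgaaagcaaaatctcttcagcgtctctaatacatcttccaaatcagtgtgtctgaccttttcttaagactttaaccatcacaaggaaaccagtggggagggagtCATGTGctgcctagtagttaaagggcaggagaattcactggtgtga
Dct: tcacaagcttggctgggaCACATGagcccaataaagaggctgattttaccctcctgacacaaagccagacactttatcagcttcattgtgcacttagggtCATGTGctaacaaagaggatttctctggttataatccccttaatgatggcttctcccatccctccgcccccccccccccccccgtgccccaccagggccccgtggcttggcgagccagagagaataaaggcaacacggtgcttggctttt
Mc1r: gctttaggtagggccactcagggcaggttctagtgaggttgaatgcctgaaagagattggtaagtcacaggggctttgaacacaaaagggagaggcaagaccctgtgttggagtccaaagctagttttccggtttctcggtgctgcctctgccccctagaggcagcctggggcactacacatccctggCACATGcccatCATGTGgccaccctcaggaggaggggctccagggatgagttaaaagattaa

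Levels are the log2 of a probe's processed intensity over the 75th percentile of its array, so 0 is that percentile, and levels of different probes are not set against each other. A probe counts as detected where the scanner software marked it well above background. Between 67.1% and 72.7% of spots per array were detected, no spot was saturated, and the 75th percentile lay between 821.5 and 1540 intensity units. The RNA of vehicle mice filled slide 1 in scan 1 and that of enalapril mice slide 2 in scan 2, so a slide effect and the treatment cannot be told apart in any value given here. Median local background was 57.5 to 66 units on the vehicle slide and 48 to 52 on the enalapril slide. The enalapril 4 array stood apart. Of 17619 genes detected on all 8 arrays, 190 were at least 1 log2 unit below every other array there, against 0 to 16 on each other array. Melanocyte genes were present in the tissue: Dct, Tyrp1, Mlana, Slc45a2, Kit and 1 probe of Mitf were detected on all 8 arrays, as were the further melanocyte markers Pmel, Slc24a5 and Sox10.

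Tests used limma over 19111 genes with 1 probe each, the brightest, where that probe was detected on at least 4 of 8 arrays. A call is an adjusted p under 0.05 (Benjamini-Hochberg). Of the 10 genes, 7 passed the detection filter and Tyr, Oca2 and Gpr143 did not. None of the 7 was called, while 14.2% of all genes tested were, 9.84% lower and 4.33% higher with enalapril. At an unadjusted p under 0.05 there were 3 of the 7 (Dct, Slc45a2 and Mc1r), against 32.1% of all genes. The median difference, enalapril minus vehicle, was -0.34 over the 7 and -0.08 over all genes tested. A normexp background correction turned Tyrp1 (0.13), Slc45a2 (0.31) and Mc1r (0.72) to the other sign, and once the local background of 6 spots on enalapril 3 was repaired they were -0.21, -0.24 and -0.0065. All of these are bulk measurements, in which fewer melanocytes and less RNA per melanocyte cannot be told apart.

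**Figure D1:**
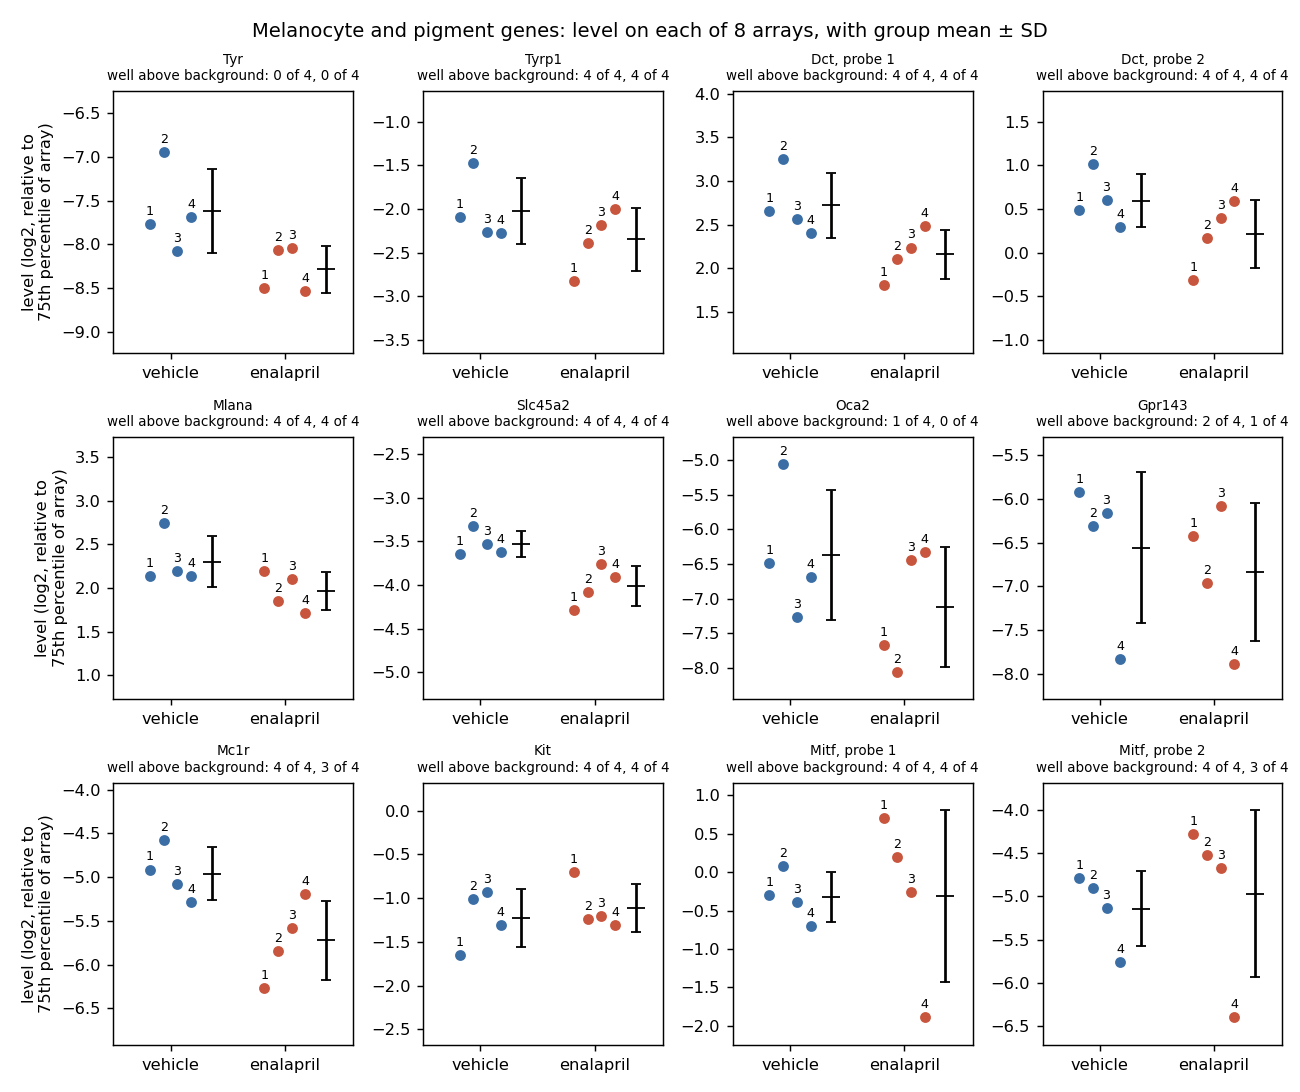
Level of each of the 12 probes on each array (log2 over the array's 75th percentile, one panel per probe with its own vertical axis), vehicle in blue and enalapril in red, with array numbers, and with the group mean and SD (n = 4) in black. Panel titles give the vehicle and then the enalapril arrays on which the probe was detected. Vehicle 2 is the highest point for Tyrp1, both Dct probes, Mlana, Slc45a2 and Mc1r, and for Tyr and Oca2, which were not well above background on most or all arrays, and enalapril 4 lies far below the other arrays for both Mitf probes.

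Of the 3 melanin enzymes, tyrosinase itself was not well above background on any array. The Tyr probe was printed 10 times per array, and 0 of its 80 spots were well above background. In 37 spots the software had put a surrogate value for a signal too low to measure, 13 of 40 on vehicle arrays and 24 of 40 on enalapril arrays. The averaged intensity was 4.08, 12.5, 5.70 and 4.30 units on vehicle arrays 1 to 4 and 2.97, 3.30, 3.11 and 2.36 on enalapril 1 to 4. The lowest intensity marked well above background was 13.1 to 19.5 units per vehicle array and 9.65 to 13.1 per enalapril array, above the Tyr value of that array in each case. Vehicle 2 was the highest. Since no array of either group was well above background, no fold is given.

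Tyrp1, which oxidises a late intermediate of black melanin and helps to stabilise tyrosinase, was also printed 10 times and was detected in 80 of 80 spots. Its level was -2.10, -1.48, -2.27 and -2.28 on vehicle 1 to 4 and -2.82, -2.39, -2.18 and -2.00 on enalapril 1 to 4. Vehicle 2 was highest and enalapril 1 lowest, and the other arrays of both groups lay among each other. Repeat spots on 1 array had an SD of only 0.049 to 0.10, while the vehicle arrays had a mean of -2.03 ± 0.38 and the enalapril arrays of -2.35 ± 0.36 (SD, n = 4). Arrays of 1 group thus differed by more than repeat spots of 1 array. The difference was -0.32 ± 0.23 (SE), with a 95% interval from -0.84 to 0.20 and an adjusted p of 0.369 by limma.

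Dct, dopachrome tautomerase, works between tyrosinase and Tyrp1 and is also a marker of the melanoblasts that colonise the skin. Its brighter probe read 2.66, 3.25, 2.57 and 2.40 on vehicle 1 to 4 and 1.81, 2.11, 2.24 and 2.49 on enalapril 1 to 4. The groups overlapped through a single pair, as enalapril 4 lay above vehicle 4. The means were 2.72 ± 0.37 and 2.16 ± 0.28 (SD, n = 4), so vehicle was 1.47 times enalapril, a log2 difference of -0.56 ± 0.21 (95% interval -1.04 to -0.08). The unadjusted p was 0.0261 and the limma adjusted p 0.106. The difference rested in part on vehicle 2, and without that array it was -0.38 with an adjusted p of 0.197.

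A second Dct probe gave the same order at both ends, with vehicle 2 highest and enalapril 1 lowest. It read 0.49, 1.01, 0.60 and 0.29 on the vehicle arrays and -0.31, 0.17, 0.39 and 0.59 on the enalapril arrays. After each probe was centred on its mean, the pair differed by 0.125 log2 units per array on average. In a fit of every probe, where 10.4% of 28580 probes were called, this probe had a difference of -0.39 ± 0.22 with an adjusted p of 0.278, and the brighter one had an adjusted p of 0.120.

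Of the 7 tested genes, Slc45a2 was the one whose groups did not overlap. It is a transporter that keeps the melanosome at a pH at which tyrosinase works. It read -3.65, -3.32, -3.53 and -3.62 on vehicle 1 to 4 and -4.29, -4.08, -3.76 and -3.91 on enalapril 1 to 4. Every enalapril array was below every vehicle array, which, in that direction, held for 15.4% of all genes tested. The means were -3.53 ± 0.15 and -4.01 ± 0.23 (SD, n = 4), a difference of -0.48 ± 0.14 (95% interval -0.79 to -0.17), or vehicle 1.39 times enalapril. The unadjusted p was 0.00720 and the limma adjusted p 0.0504, just short of a call. Over its 22 alternative settings the adjusted p ran from 0.0158 to 0.702, and without enalapril 4 Slc45a2 was called, at -0.51 and an adjusted p of 0.0389.

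Mlana, a melanosomal protein that shapes early melanosomes together with Pmel, read 2.14, 2.74, 2.19 and 2.14 on the vehicle arrays and 2.20, 1.85, 2.10 and 1.72 on the enalapril arrays. Vehicle 2 stood above the other 7 arrays, and the rest of the vehicle arrays lay within the enalapril range. The means were 2.30 ± 0.29 and 1.97 ± 0.22 (SD, n = 4), and the difference was -0.34 ± 0.17, with a 95% interval from -0.73 to 0.05 and a limma adjusted p of 0.210. Unlike Dct and Tyrp1, its level on enalapril 1 was the highest of the enalapril group.

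Oca2, a melanosomal anion channel, was detected on 1 of 4 vehicle arrays and on 0 of 4 enalapril arrays. Its intensity was 9.96, 46.3, 10.0 and 8.53 units on vehicle 1 to 4 and 5.25, 3.31, 9.41 and 10.9 on enalapril 1 to 4, so vehicle 2 was the array that detected it. With 1 array of 8 measured, no fold is given. Gpr143, a receptor in the melanosome membrane that limits melanosome growth, was detected on 2 vehicle arrays and 1 enalapril array and was not tested. It read -5.92, -6.31, -6.16 and -7.84 on the vehicle arrays and -6.42, -6.96, -6.09 and -7.89 on the enalapril arrays. The groups overlapped almost fully, with array 4 lowest in each.

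The receptor Mc1r had the largest mean difference of the 7 tested genes. It read -4.91, -4.57, -5.08 and -5.28 on vehicle 1 to 4 and -6.27, -5.85, -5.59 and -5.20 on enalapril 1 to 4, and it was detected on 4 vehicle and 3 enalapril arrays. As with Dct, only enalapril 4 reached into the vehicle range. The means were -4.96 ± 0.30 and -5.72 ± 0.45 (SD, n = 4), a difference of -0.76 ± 0.24 (95% interval -1.30 to -0.22), or vehicle 1.70 times enalapril. With an unadjusted p of 0.0113 the limma adjusted p was 0.0653, which ran from 0.00909 to 0.984 over 21 alternatives. Without enalapril 4, Mc1r was called at -0.94 with an adjusted p of 0.0176. The probe is dim, and under the normexp background correction with repaired local backgrounds its difference was -0.0065.

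Kit did not follow the pigment genes. Its probe was printed 10 times, detected in 80 of 80 spots, and read -1.66, -1.01, -0.93 and -1.31 on vehicle 1 to 4 and -0.70, -1.24, -1.21 and -1.31 on enalapril 1 to 4. The lowest array was vehicle 1 and the highest enalapril 1, and the other 6 lay between -1.31 and -0.93. The means were -1.23 ± 0.33 and -1.11 ± 0.28 (SD, n = 4), and the difference was 0.11 ± 0.19, with a 95% interval from -0.33 to 0.56 and a limma adjusted p of 0.726. Without vehicle 1 it was -0.030, without enalapril 1 it was -0.024, and on the uncentred series matrix it was -0.25.

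Mast cells carry KIT too, and the levels of 10 mast cell markers are given beside it. All 10 passed the detection filter and none was called by limma, with 1 (Mrgprb2, a mast cell receptor) at an unadjusted p under 0.05. Over all genes tested these shares were 14.2% and 32.1%. Their summed level, in multiples of the array's 75th percentile, was 26.3, 36.4, 41.0 and 37.7 on vehicle 1 to 4 and 40.9, 20.6, 23.6 and 38.9 on enalapril 1 to 4. A sum weighs bright probes most, here those of Cma1, Cpa3 and Mcpt4, with vehicle means of 3.89, 2.92 and 2.92 on the log2 scale. Within each group the extreme Kit array was also extreme for this sum, vehicle 1 being lowest and enalapril 1 highest. Enalapril 4, with the next highest mast cell sum of its group, had the lowest Kit level of that group. The carboxypeptidase Cpa3, a mast cell granule enzyme, read 2.62, 3.03, 3.09 and 2.94 on the vehicle arrays and 3.32, 2.25, 2.52 and 3.29 on the enalapril arrays. The part of mast cells in the Kit signal was not tested. Kitl, the ligand of KIT, was named for that role after its values were seen and differed by -0.03 ± 0.19 (limma adjusted p = 0.941).

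Among those of the 10 genes that were detected on all 8 arrays, Mitf was the most variable. Its brighter probe, printed 10 times and detected in 80 of 80 spots, read -0.30, 0.08, -0.39 and -0.70 on vehicle 1 to 4 and 0.70, 0.19, -0.26 and -1.89 on enalapril 1 to 4. The enalapril group held both the highest and the lowest array, and enalapril 4 was 1.19 log2 units below the next lowest. The SD was 0.32 over the vehicle arrays and 1.12 over the enalapril arrays, against 0.048 to 0.086 between repeat spots. The difference was 0.01 ± 0.49, with a 95% interval from -1.11 to 1.13 and a limma adjusted p of 0.989. Without enalapril 4 the difference was 0.54 with an adjusted p of 0.150, the lowest of its 23 alternatives, which reached 0.996. Its sign also turned on the uncentred series matrix (-0.35) and with median or control probe centring (-0.024 and -0.050).

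The dimmer Mitf probe had the same low array. It was detected on 4 vehicle and 3 enalapril arrays and read -4.79, -4.90, -5.14 and -5.75 on the vehicle arrays and -4.28, -4.53, -4.68 and -6.40 on the enalapril arrays. Enalapril 1 to 3 were above all 4 vehicle arrays and enalapril 4 was below them. The difference was 0.17 ± 0.45 with an adjusted p of 0.828 over all probes, and the pair of centred Mitf probes differed by 0.204 log2 units per array. Mitf on enalapril 4 is 1 of the 190 genes that lay at least 1 log2 unit below every other array there, and what sets that array apart was not tested. The pigment genes did not share 1 direction on enalapril 4. Dct, Tyrp1 and Mc1r each had their highest enalapril value there. Mlana had its lowest value of all 8 arrays there (1.72), and Slc45a2 lay within its enalapril range (-3.91). Kit had its lowest enalapril value there (-1.31).

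Several pigment genes had like profiles over the 8 arrays. Vehicle 2 was the highest array for 5 of the 7 tested genes (Tyrp1, Dct, Mlana, Slc45a2 and Mc1r), while it was highest for 12.4% of all genes tested. It was highest for Tyr and Oca2 too, but the Oca2 probe was well above background on no other array and the Tyr probe on none at all. Enalapril 1 was the lowest array for Tyrp1, Dct, Slc45a2 and Mc1r and the highest for Kit and Mitf, and it was lowest for 22.3% of all genes and highest for 12.2%. Among the 4 restricted genes detected on all 8 arrays (Dct, Tyrp1, Mlana and Slc45a2), Dct had the widest range, 1.45 log2 units, and it was set against 15391 named genes detected on all arrays by the mean absolute difference of centred profiles. The nearest gene was Slc24a5 at 0.104 log2 units, followed by Bglap3 (0.113), Ripor3 (0.119), Tyrp1 (0.121) and Mast1 (0.123). Slc45a2 came at rank 95 and Mlana at rank 2659, whereas Kit came at 11609 and Mitf at 14977. Likeness over 8 arrays is a description only, since all arrays are shared between the genes compared.

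Slc24a5 is a potassium-dependent exchanger of pigment organelles and was not among the 10 genes. Its level was -3.06, -2.31, -3.18 and -3.41 on the vehicle arrays and -4.20, -3.45, -3.58 and -3.22 on the enalapril arrays. It shared with Dct and Tyrp1 the high vehicle 2 and the low enalapril 1, and its difference of -0.62 ± 0.27 was not called (limma adjusted p = 0.158). Its promoter at chr2:125067877-125068126 (GRCm38.p6, plus strand) is shown beside those above and held the reverse form 13 bases before the start. CATGTG on either strand was in 12.3% of all promoters. The promoters of the neighbours Bglap3, Ripor3 and Mast1 were not looked up, so the match says nothing about profile likeness.
Slc24a5: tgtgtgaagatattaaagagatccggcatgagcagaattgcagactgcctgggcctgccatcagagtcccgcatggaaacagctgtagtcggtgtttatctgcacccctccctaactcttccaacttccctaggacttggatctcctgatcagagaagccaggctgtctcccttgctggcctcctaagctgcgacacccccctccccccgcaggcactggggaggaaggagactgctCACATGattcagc

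**Figure D2:**
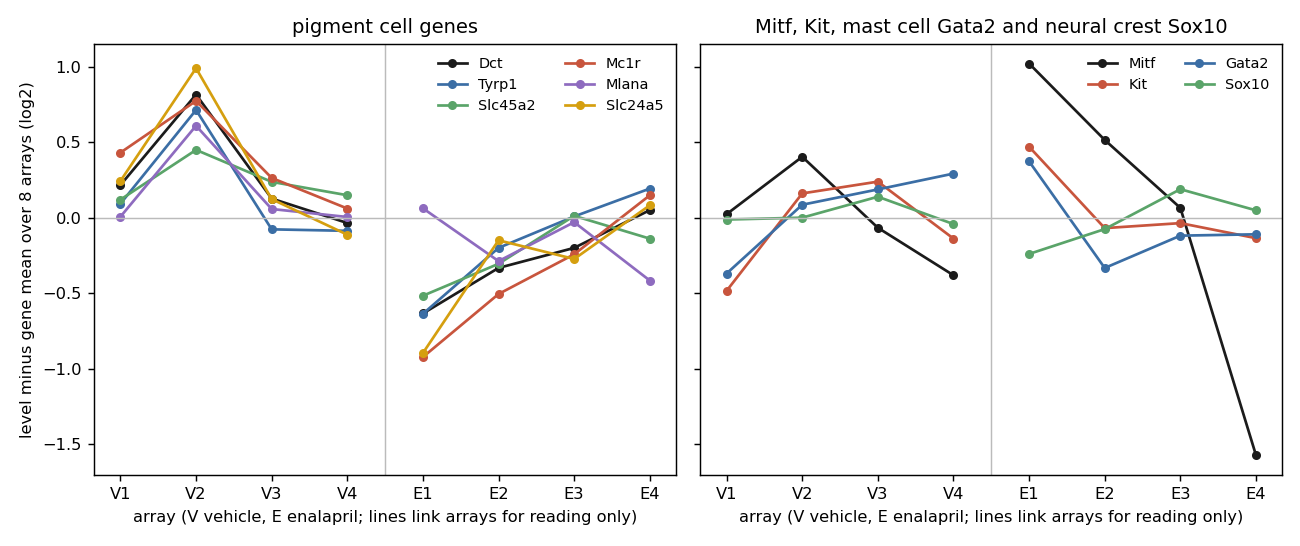
Level minus the gene's mean over 8 arrays (log2), with vehicle arrays V1 to V4 and enalapril arrays E1 to E4 on the horizontal axis and lines that only link points of a gene. On the left, the 6 pigment cell genes peak at V2, and all but Mlana are lowest at E1. On the right, Mitf and Kit are highest at E1 and Mitf drops at E4, beside the mast cell factor Gata2 and the neural crest factor Sox10.

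The rest of the pigment machinery was read from 5 lists, none of whose genes are among the 10. Of 10 genes for melanosome structure and pigment chemistry, 10 were tested, 1 fell and 0 rose, with a median difference of -0.14. For comparison, 9.84% of all genes tested fell, 4.33% rose and the median was -0.08, so 1 of 10 lies near the share of all genes. The gene that fell was Trpm1, melastatin, a cation channel gene of melanocytes that MITF controls. It read -3.24, -2.45, -3.59 and -3.24 on vehicle 1 to 4 and -4.87, -4.26, -4.21 and -4.14 on enalapril 1 to 4. No enalapril array reached the vehicle range, which in that direction held for 15.4% of all genes tested. Vehicle 2 and enalapril 1 were again the extremes. The difference was -1.24 ± 0.26 (SE, limma adjusted p = 0.0212), and a second Trpm1 probe was not detected on any array. The call was lost without vehicle 1 (adjusted p = 0.05003), without enalapril 1 (0.0503) and without enalapril 2 (0.0513), with differences from -1.39 to -1.01 over the 8 arrays left out in turn. Pmel, the fibril protein of early melanosomes, differed by -0.52 ± 0.30 (adjusted p = 0.259).

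Of 20 genes for melanosome biogenesis and transport, 20 were tested, 3 fell and 0 rose, with a median of -0.10; at this list size, the 3 calls are also not far from the share over all genes. Those that fell were Bloc1s4 (-0.43 ± 0.09, limma adjusted p = 0.0220), Dtnbp1 (-0.49 ± 0.13, adjusted p = 0.0360) and Bloc1s1 (-0.53 ± 0.14, adjusted p = 0.0362). All 3 encode subunits of BLOC-1, a complex that sorts cargo to melanosomes and to other lysosome-related organelles and is made in most cell types. The other 4 listed subunits were not called: Bloc1s2 differed by -0.15, Bloc1s3 by -0.03, Bloc1s5 by -0.30 and Bloc1s6 by 0.15. For each of the 3 called genes, every enalapril array lay below every vehicle array, as for 15.4% of all genes tested. Each of the 3 calls was lost when vehicle 1, vehicle 4, enalapril 1, enalapril 2 or enalapril 3 was left out, with adjusted p up to 0.0941. Dtnbp1 has 2 further tested probes, which differed by -0.38 and 0.10 and were not called. As the mean of all its probes, an undetected one (-0.21) included, Dtnbp1 was -0.24 and not called (limma adjusted p = 0.220). The calls of Dtnbp1 and Bloc1s1 were also lost without vehicle 2 (0.0893 and 0.0905).

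The list of melanocyte specification factors holds 16 genes, receptors and relatives of Mitf included. With 1 probe each, 16 were tested and 0 were called by limma, with 1 at an unadjusted p under 0.05 and a median of 0.04. Over all genes tested these shares were 14.2% and 32.1%, and the median was -0.08. Ednrb, the endothelin receptor that melanoblasts need, was the nearest to a call at -0.50 ± 0.15 (adjusted p = 0.0562), and its adjusted p ran from 0.0400 to 0.342 over 21 alternatives. Snai2 was next at -0.35 ± 0.17 (adjusted p = 0.187). Sox10, which acts upstream of Mitf and Dct in the lineage and is also made by Schwann cells, read -2.12, -2.11, -1.97 and -2.15 on the vehicle arrays and -2.35, -2.18, -1.92 and -2.06 on the enalapril arrays. Its difference was -0.04 ± 0.11, with a 95% interval from -0.30 to 0.22. The fit of every probe, where 10.4% of probes were called, called a dimmer probe of Sox9 and of Erbb3. That of Sox9 rose by 1.31 (limma adjusted p = 0.0401). That of Erbb3 fell by 0.88 (adjusted p = 0.0490) and was detected on 4 vehicle arrays and 1 enalapril array. The other probes of both genes were not called. A second Ednrb probe differed by -0.36 (adjusted p = 0.471).

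On the side of the Mc1r pathway, 13 of 15 melanocortin and agouti signalling genes were on the array and tested, 3 fell and 0 rose, and the median was -0.38. Over all genes tested, 9.84% fell and 4.33% rose, and the median was -0.08. Pomc, which encodes the precursor of melanocyte-stimulating hormone, fell by 0.95 ± 0.23 (limma adjusted p = 0.0294). It read -2.91, -3.23, -3.47 and -3.20 on the vehicle arrays and -4.18, -3.96, -4.77 and -3.71 on the enalapril arrays. The groups did not overlap, which in that direction held for 15.4% of all genes tested. Agrp, an antagonist of melanocortin receptors best known from the hypothalamus, fell by 0.90 ± 0.11 (adjusted p = 0.00795). Mc2r, the corticotropin receptor, fell by 0.64 ± 0.13 (adjusted p = 0.0207).

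Agrp was called whichever array was left out. The normexp correction before repair turned Trpm1, Pomc, Agrp and Mc2r to the other sign (0.11, 0.30, 0.29 and 0.47), and after repair they were -0.49, -0.35, -0.37 and -0.15 with none of the 4 called (adjusted p = 0.103, 0.148, 0.0753 and 0.533 by limma). Mc2r was not called without vehicle 2 (adjusted p = 0.0517), vehicle 4 (0.0526), enalapril 1 (0.0544) or enalapril 2 (0.0599). Pomc was not called without vehicle 1 (0.0765), vehicle 2 (0.0682), vehicle 4 (0.0682), enalapril 1 (0.0707), enalapril 2 (0.0595) or enalapril 3 (0.0501). Of 17 skin factors that act on melanocytes, 16 were on the array, 13 were tested, 3 rose and 0 fell, with a median of -0.03. Over all genes tested, 4.33% rose and 9.84% fell, with a median of -0.08.

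The 3 that rose were Dkk3 (0.80 ± 0.15, limma adjusted p = 0.0158), Hgf (0.73 ± 0.13, adjusted p = 0.0145) and F2rl1 (0.69 ± 0.17, adjusted p = 0.0319). Dkk3 belongs to a family of secreted Wnt modulators, Hgf is a growth factor for melanocytes that signals through MET, and F2rl1 is the protease-activated receptor through which keratinocytes take up melanosomes. Hgf rested on 1 of its 3 tested probes, as the others differed by 0.15 and -0.09. Met, also listed, differed by 0.31 and was not called (limma adjusted p = 0.171). In the fit of every probe a dimmer Met probe rose by 1.41 (adjusted p = 0.00739), while another differed by -0.11. Dkk3 and the called Hgf probe passed whichever array was left out. With 1 array left out, F2rl1 passed only without vehicle 4 or enalapril 4, and its adjusted p without any other array was 0.0631 to 0.0814. Under the repaired normexp correction F2rl1 was 0.43 and not called (adjusted p = 0.0675).

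**Figure D3:**
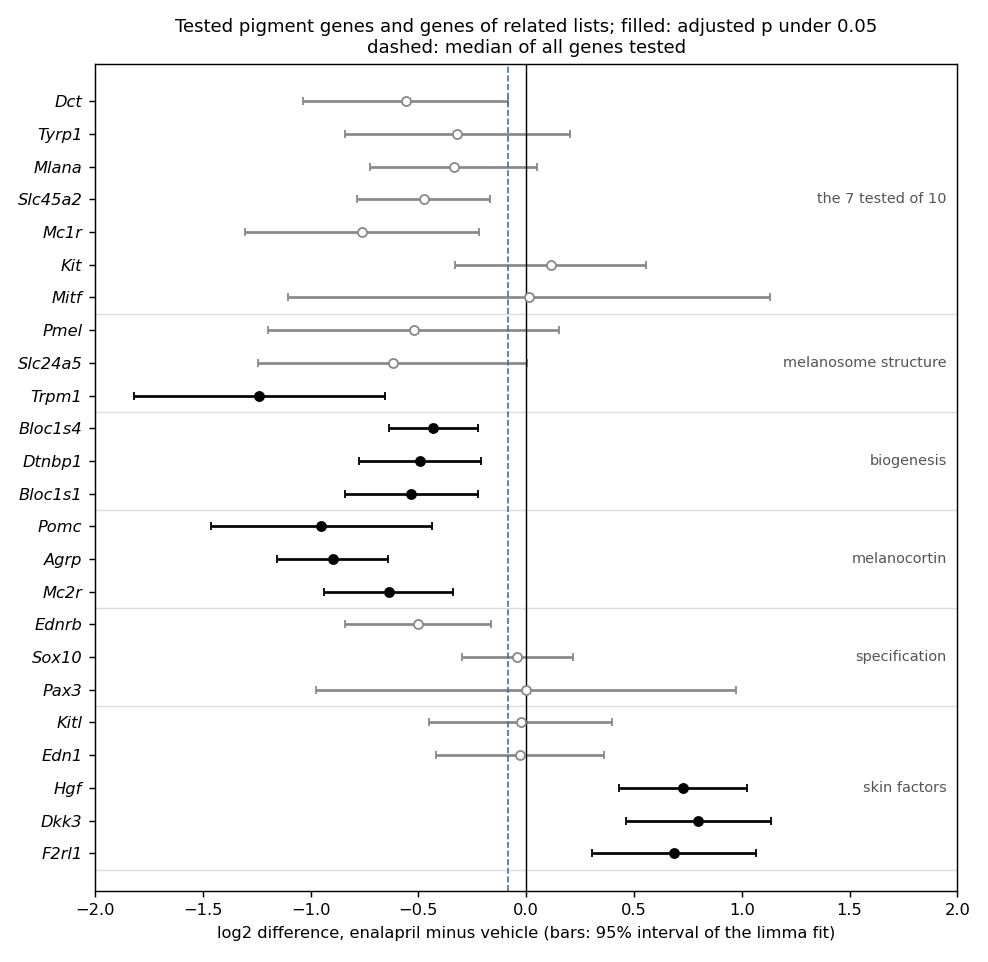
Difference in level, enalapril minus vehicle (log2, horizontal axis), with its 95% interval from limma, for the 7 tested genes of the 10 and for genes of the 5 lists. Filled points have an adjusted p under 0.05, and the dashed line is the median of all genes tested (-0.08). None of the 7 is filled. Trpm1, 3 BLOC-1 genes, Pomc, Agrp and Mc2r lie to the left and Hgf, Dkk3 and F2rl1 to the right.

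Markers of cells that share genes with melanocytes are given beside these values. Of 9 tested Schwann cell markers of 10 listed, 1 fell and 0 rose, and Cdh19 was not detected on any array. Over all genes tested, 9.84% fell and 4.33% rose, so 1 of 9 lies near the share of all genes. The gene that fell was S100b, which melanocytes also make, at -0.59 ± 0.10 (limma adjusted p = 0.0140). It read 1.07, 1.12, 1.03 and 0.85 on the vehicle arrays and 0.36, 0.50, 0.31 and 0.55 on the enalapril arrays. The summed Schwann cell level was 8.42 to 9.72 over the vehicle group and 7.28 to 8.09 over the enalapril group. These sums did not overlap, but they include S100b, the only 1 of the 9 markers whose own groups did not overlap. The other 8 were not called, and the median over the 9 was -0.13. Melanocytes of the follicle lie beside the hair matrix. Of 9 hair matrix and shaft markers, 1 fell (Krt32) and 7 were below 0, while 9.84% of all genes tested fell and 59.8% were below 0. The median of the 9 was -0.39, that of the 7 tested pigment genes -0.34 and that of all genes tested -0.08. Krt32 and Msx2 were lower without overlap between groups, 2 of 9, against 15.4% of all genes tested. The summed level of the 9, at 43.7 to 90.2 on vehicle and 42.8 to 67.2 on enalapril arrays, overlapped. The part of nerve, hair follicle or mast cell content in the pigment gene levels was not tested.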

How the data were processed

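Gene expression was measured on 8 one-colour (Cy3) Agilent mouse arrays. The deposited scanner files hold spot intensity, which per the file headers was background-subtracted and detrended by Feature Extraction 9.1.3.1 (9.1 in the submitters' processing notes), with surrogates for signals too low to measure and no scaling between arrays. Flags of the same software, deposited as 0 or 1 (other values), served to filter spots and probes. The series matrix as deposited has log2 values, which equalled the log2 of the processed intensity within 5e-09, uncentred, with medians of 6.39 to 7.30 per array; further steps by the authors are not given in the sources used here.

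Non-control spots numbered 43379 of 45018 per array. Spots with an outlier flag were dropped, repeat spots of a probe were averaged on log2, and 47 of 41174 probes were left out. Each array's 75th percentile was subtracted. Names were updated through RefSeq tables: 22951 probes matched by accession, 6659 by symbol, 3096 by synonym, 1894 kept the file's name and 6574 had none. Genes were tested with limma 3.58.1 in R 4.3.3 (lmFit and eBayes, two-sided, group as the only term), after a check on simulated data. Figures used matplotlib 3.10.9 in Python 3.11.15. The number of arrays limits the precision. The p-values measure the spread between arrays that the labels call biological replicates.

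The 10 genes, the lists and the alternatives were chosen with earlier results of these data known. Named genes were the 10, up to 4 called genes with the smallest adjusted p in each list (the 2 with the smallest p where none was called), measured melanocyte, mast cell and Schwann cell markers, and the 5 genes closest to the widest-ranging restricted gene among those detected on all arrays. Krt32, Msx2, Kitl, Sox9, Erbb3, Met, Trp63, Col1a1 and the BLOC-1 genes not called were named after their values were seen. The alternatives were other background corrections, scalings, filters, probe choices and variance models, the replicate number as a block, an adjusted p under 0.10, and each array left out.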

Additional observations from a re-analysis of the deposited data

Results flagged for a closer look

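In 5 of 54 groups of 4 arrays examined, 1 array lay far from the other 3 relative to the range of its group, and chance alone picks out about 1 in 20 groups. Kit on enalapril 1 was -0.70, with the other enalapril arrays from -1.31 to -1.21. Mlana on vehicle 2 was 2.74, with the other vehicle arrays from 2.14 to 2.19. Trpm1 on enalapril 1 was -4.87, with the other enalapril arrays from -4.26 to -4.14. Mc2r on vehicle 4 was -3.54, with the other vehicle arrays from -3.85 to -3.79. Mrgprb2, a mast cell receptor, was -3.36 on enalapril 3, with the other enalapril arrays from -2.97 to -2.94.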

How the results depend on the processing

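Of the 10 genes, 0 were called with the settings of the report, 3 with array weights (Dct, Mc1r and Slc45a2), 2 on the uncentred series matrix (Dct and Mc1r), 1 with detection on all 8 arrays (Slc45a2), 2 at an adjusted p under 0.10 and 0 to 2 over the arrays left out in turn. On the series matrix the median of all genes was -0.45 against -0.08, 94.9% of calls were lower against 69.4%, and Kit was -0.25 and Mitf -0.35; quantile normalization gave 57.9% lower. Mitf was -0.024 with median centring and -0.050 with E1A control centring. With arrays left out, Kit ran from -0.030 to 0.21, Mitf from -0.33 to 0.54 and its dimmer probe from -0.055 to 0.65. Normexp turned Tyrp1 (0.13), Slc45a2 (0.31), Mc1r (0.72), Slc24a5 (0.22), Trpm1 (0.11), Agrp (0.29), Mc2r (0.47) and Pomc (0.30), and it called 0 genes by limma, with 2650 at an unadjusted p under 0.05; on enalapril 3, 6 spots had a local background far above the spot, and once repaired 1994 genes were called. Hgf was -0.064 as the mean of all its probes. That mean includes an untested probe at -1.04, detected on 1 vehicle and 0 enalapril arrays.

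The number of all genes called, 2709, was 1494 without a filter, 375 with E1A centring, 5938 with array weights, 4536 at an adjusted p under 0.10, 850 to 4962 over the arrays left out, highest without enalapril 4. The 10 calls in the 5 lists became 0 with normexp, 2 with E1A centring, 20 with array weights, 18 at an adjusted p under 0.10 and 3 to 17 over the arrays left out, 17 being without enalapril 4. With the replicate number as a block, 610 genes and 4 of the lists' genes were called. Same-numbered arrays' deviations correlated at -0.16, 0.05, 0.15 and -0.02. Only the arrays numbered 3 each correlated best with the other. The labels give such arrays a shared number and state no pairing, and these few correlations cannot exclude one. Slide and scan could not be fitted as blocks. The causes of the other shifts were not tested.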

Other observations

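Markers of other skin cells, measured on the same arrays, set the tissue in which the pigment genes were read. Over all genes tested, 9.84% fell and 4.33% rose by limma, 32.1% had an unadjusted p under 0.05, and the median difference was -0.08. Of 8 skeletal muscle markers 4 fell and 0 rose by limma, and their summed level was 477 to 718 over the vehicle group and 406 to 449 over the enalapril group. Of 8 adipocyte markers 5 fell and 0 rose, with summed levels of 298 to 386 and 195 to 301. Of 7 keratinocyte markers 0 were called and 1 had an unadjusted p under 0.05, with a median difference of 0.07. A dimmer Trp63 probe was called in the fit of every probe (0.77, limma adjusted p = 0.0437). Of 7 dermal fibroblast markers 0 were called and 0 had an unadjusted p under 0.05, with a median of 0.10. A dimmer Col1a1 probe was called in the fit of every probe (0.89, limma adjusted p = 0.0365). Of 8 leukocyte markers 0 were called and 1 had an unadjusted p under 0.05, with a median of -0.09.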
